A study of Homo sapiens with 26 samples.

Results

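The genes described here are 9 rows of the NRF2 antioxidant pathway: Nfe2l2, which encodes the transcription factor NRF2, its repressor Keap1, and the known targets Gclc, Gclm, Txnrd1, Srxn1, Nqo1, Hmox1 and Osgin1. The pathway set was chosen by name and has 10 rows, all found and 9 of them described, among the 55353 gene rows of the 2 input count files, which print mouse-style symbols. The samples were RNA of SK-MEL-28, an established human melanoma cell line grown in serum-containing medium, either untreated or kept in salubrinal for 72 h, at a dose that the labels do not give. Salubrinal keeps the translation initiation factor eIF2α phosphorylated and so turns on the integrated stress response, in which bulk translation is reduced and the ATF4 program is induced. The study asked which RNAs are bound to ribosomes with and without this response. Of 26 samples, 2 were input RNA (1 salubrinal, 1 untreated control) and 24 came from sucrose gradients (5 to 20%) of cells given 100 µg/mL cycloheximide during 12 min, as 40S, 60S, 80S and polysome fractions with 3 replicates per fraction and treatment. All groups share the same cell line and, in the gradient samples, the cycloheximide step.

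NRF2 is a basic leucine zipper factor that is made continuously and destroyed quickly. KEAP1 holds it and hands it to the CUL3 ubiquitin ligase, and oxidants or electrophiles that modify cysteines of KEAP1 let NRF2 escape. Freed NRF2 pairs with small MAF proteins on antioxidant response elements and raises genes for glutathione and thioredoxin reduction, quinone and heme breakdown and NADPH supply. Regulation of NRF2 is largely at the protein level, which RNA counts do not measure.

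The salubrinal input had a total of 145107865 counts, 10245548 of them on gene rows, and the control input 203322430 and 12068784. The most abundant row, CT010467.1, made up 12.8% of the salubrinal and 56.7% of the control gene-row counts, so levels are given as CPM (counts per 1e6 counts) after scaling by trimmed means. There was 1 input library per treatment, so nothing was tested, and the 95% intervals given for log2 ratios cover counting error only. Of the markers of the labelled cell type, Pmel stood at 953 CPM with salubrinal and 1928 CPM in the control, but Mlana was at 0 in both libraries and Tyrp1 had 0 and 5 counts. All 6 leukocyte markers were at or under 3 counts in both, and 5 endothelial markers summed to 1.06 CPM with salubrinal and 1.49 CPM in the control. Fibroblast markers summed to 3.80 and 5.28 CPM, mostly from Lum with 43 and 42 counts, and keratinocyte and epithelial markers to 26.7 and 24.9 CPM, mostly from Krt18 with 317 and 177 counts. The 10 melanocytic markers summed to 1384 CPM with salubrinal and 2799 CPM in the control, and the part of that difference in the results below was not tested. In bulk RNA, fewer cells of a kind and less RNA per cell cannot be told apart. The submitters' notes name the human build hg19, which conflicts with the mouse-style rows of the inputs, and no source used here explains this. How the reference affected the level of any input row was not tested, and a row near 0 need not mean an unexpressed gene.

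Nqo1, Gclm, Hmox1 and Txnrd1 stood well above the typical row with salubrinal, while Keap1 and Osgin1 stood below it and Gclc did not differ beyond counting error. The 9 rows had a median log2 ratio of salubrinal over control of 0.39, against 0.023 over the 10614 rows with at least 50 counts, and 6 of the 9 lay above that all-row median. Of the 9, 2 were at least 2-fold higher, where 2.75% of all rows were, and 0 were at least 2-fold lower, where 3.80% were. Nqo1 and Gclm were the rows just inside the 2-fold line and Hmox1, at 1.99-fold, just outside it. All of these ratios depend on the library scaling: by total gene-row counts the median of all rows moved to 0.95, the median of the 9 moved to 1.32 and none of the 9 was negative. Under that scaling 6 of the 9 were at least 2-fold higher, where 45.5% of all rows were. Relative to the all-row median each of the 9 kept its side, but a scaling shifts all rows by nearly the same amount. That outcome was fixed in advance and is no check of these ratios.

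**Figure D1:**
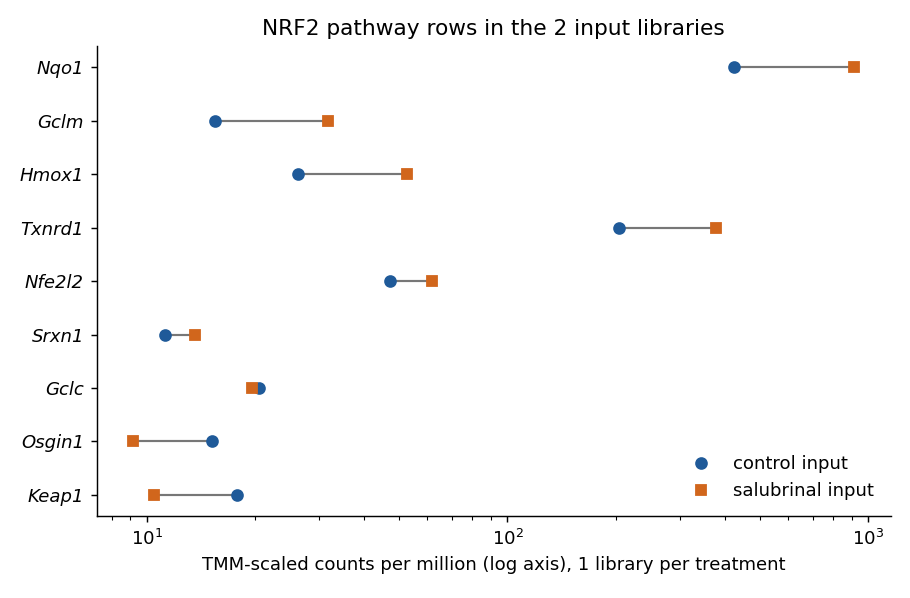
Level of each NRF2 pathway row in the control (circle) and salubrinal (square) input library, in trimmed-mean-scaled CPM on a log axis, with 1 library per treatment and no error bar. Nqo1 goes from 424 CPM in the control to 915 CPM with salubrinal, and the Keap1 and Osgin1 squares lie left of their circles under this scaling, but not when libraries are scaled by total gene-row counts.

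Nfe2l2, the gene of the factor itself, stood at 61.7 CPM with salubrinal (876 counts) and 47.2 CPM in the control (411 counts). Its log2 ratio was 0.39 (95% interval 0.22 to 0.56), and 20.1% of the rows with at least 50 counts had a higher ratio. Keap1, whose product keeps NRF2 low, stood at 10.5 CPM with salubrinal (149 counts) and 17.8 CPM in the control (155 counts). Its log2 ratio of -0.75 (-1.10 to -0.43) was the lowest of the 9, and 92.4% of rows had a higher one; by total counts it was 0.18, still below the all-row median of 0.95. The factor and its repressor thus stood on opposite sides of the typical row. The difference between their log2 ratios, in which the library scaling cancels, was 1.15 (0.77 to 1.53).

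The genes of glutamate-cysteine ligase, the rate-limiting enzyme of glutathione synthesis, did not stand together. Gclc encodes the catalytic subunit and had 19.7 CPM with salubrinal (279 counts) and 20.6 CPM in the control (179 counts), a log2 ratio of -0.064 (-0.34 to 0.21). Gclm encodes the modifier subunit, which makes the catalytic subunit more efficient, and had 31.8 CPM with salubrinal (452 counts) and 15.5 CPM in the control (135 counts). Its log2 ratio was 1.03 (0.76 to 1.33). Within the libraries, Gclm shifted against Gclc by 1.103 (0.702 to 1.504) on the log2 scale, a value that does not depend on scaling.

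Of the thioredoxin genes, Txnrd1 encodes the cytosolic thioredoxin reductase, a selenoprotein. It had 378 CPM with salubrinal (5364 counts) and 204 CPM in the control (1775 counts), and its log2 ratio was 0.89 (0.81 to 0.97). The row of its substrate thioredoxin, Txn1, had nearly the same ratio of 0.87, and the difference between them was 0.015 (-0.24 to 0.26). Txnrd2, the mitochondrial reductase, had 30 and 26 counts, and Txnrd1 shifted against it by 1.39 (0.57 to 2.20). Against Txnrd3, a further reductase with 54 and 22 counts, the shift of 0.30 (-0.49 to 1.04) was within counting error. Srxn1 encodes sulfiredoxin, which rescues over-oxidised peroxiredoxins. It had 13.7 CPM with salubrinal (194 counts) and 11.3 CPM in the control (98 counts), and its log2 ratio of 0.28 (-0.077 to 0.65) did not differ from 0 beyond counting error. Against Prdx1, the row of a peroxiredoxin it acts on, the shift was -0.080 (-0.46 to 0.31).

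Nqo1 encodes a cytosolic quinone reductase and is a standard readout of NRF2 activity. It had 915 CPM with salubrinal (12984 counts) and 424 CPM in the control (3692 counts), and its log2 ratio of 1.11 (1.06 to 1.16) was the highest of the 9; 2.11% of rows had a higher one. Nqo2, a related reductase, stood at 0.52, and Nqo1 shifted against it by 0.58 (0.21 to 0.93). Together Nqo1 and Txnrd1 carried 86.7% of the counts of the 9 rows with salubrinal and 80.3% in the control, so their ratios are the most precisely counted.

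Hmox1 encodes the inducible heme oxygenase, which opens heme to biliverdin, carbon monoxide and iron. It had 52.5 CPM with salubrinal (746 counts) and 26.3 CPM in the control (229 counts), a log2 ratio of 0.99 (0.78 to 1.22). The constitutive form Hmox2 stood at -0.092, and Hmox1 shifted against it by 1.09 (0.73 to 1.45). Hmox1 thus stood apart from Hmox2 by about as much as Gclm did from Gclc.

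Osgin1, named for growth inhibition under oxidative stress, had 9.16 CPM with salubrinal (130 counts) and 15.2 CPM in the control (132 counts). Its log2 ratio was -0.72 (-1.09 to -0.37), and 0.21 by total counts, again below the all-row median. Its relative Osgin2 stood at 0.53, and Osgin1 shifted against it by -1.26 (-1.68 to -0.85). All pairs used for these scaling-free differences were picked after their values were seen.

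**Figure D2:**
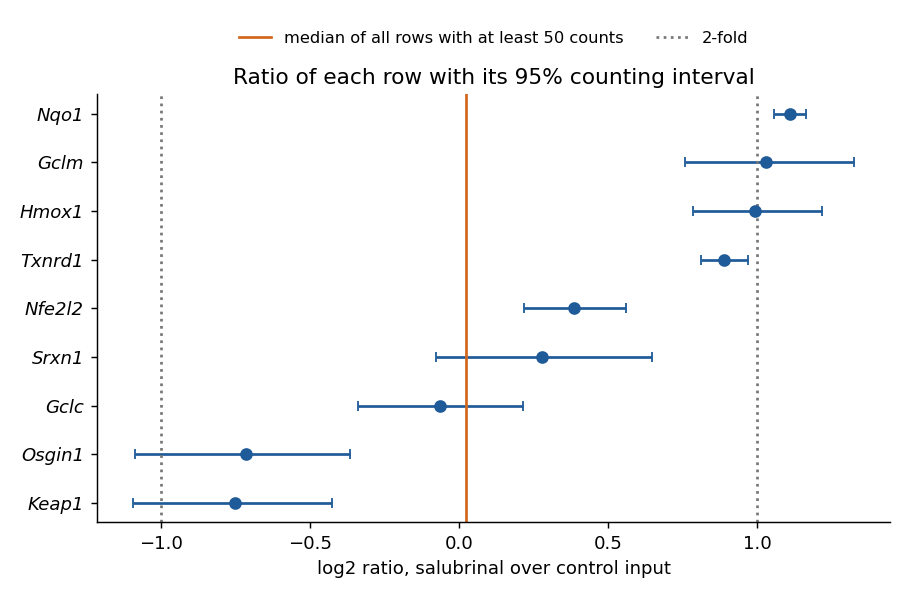
Log2 ratio of salubrinal over control input for each row (points, 1 library per treatment) with exact 95% intervals for counting error (bars), the median of all rows with at least 50 counts (solid line) and 2-fold (dotted lines). The upper 4 rows lie between 0.89 and 1.11, and Osgin1 and Keap1 lie at -0.72 and -0.75 under trimmed-mean scaling, positive but below the all-row median under total-count scaling.

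In the order of the ratios, Nqo1, Gclm, Hmox1 and Txnrd1 came first, and the interval of each overlapped that of the next. Txnrd1 and Nfe2l2 were the first neighbours whose intervals did not overlap. Nfe2l2, Srxn1 and Gclc followed with overlapping neighbours, then a second gap separated Gclc from Osgin1 and Keap1, which overlapped each other. Rows farther apart in the order could differ beyond counting error without a gap between neighbours: the intervals of Nqo1 and Txnrd1 did not overlap, nor did those of Nfe2l2 and Gclc. Counting error says nothing about the spread between cultures.

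**Figure D3:**
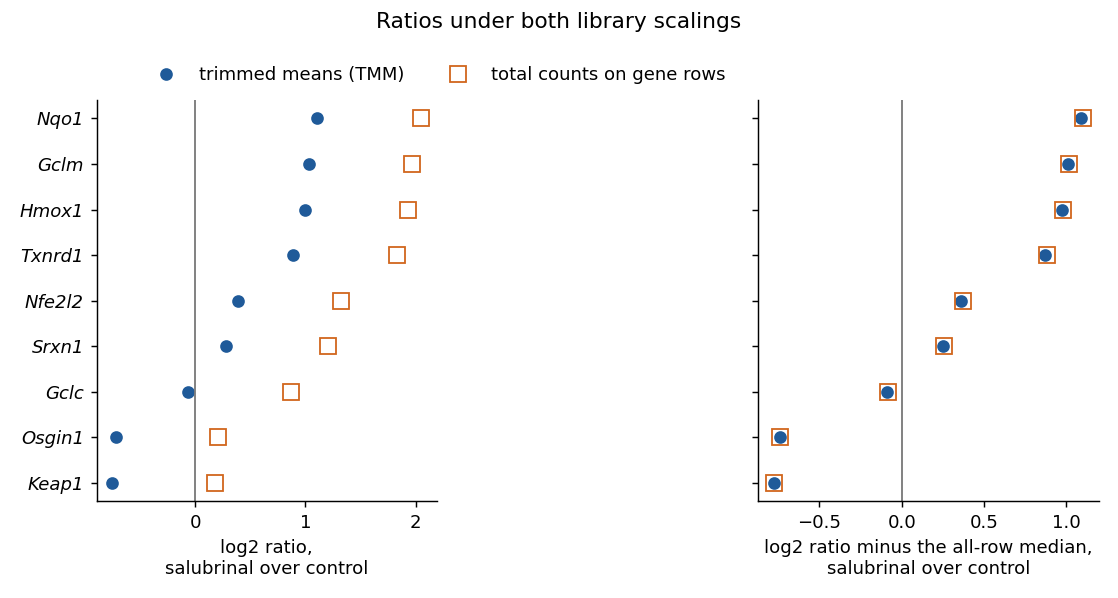
Log2 ratios of the 9 rows under trimmed-mean scaling (filled circles) and total-count scaling (open squares), as computed (left) and after subtracting the median of all rows with at least 50 counts (right). Total-count scaling moves every row up by about the shift of the all-row median, from 0.023 to 0.95. After subtraction the circles and squares nearly coincide for each row, as they must when only the scaling changes.

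The antioxidant response element that NRF2 binds with small MAF proteins has the core TGACNNNGC. Promoter windows from RefSeq (build GRCh38.p14) were found for 8 of the 9 human genes, HMOX1 having no entry. Searched on both strands in the 250 bases before each listed start, the core occurred in 4 of 11 windows, those of GCLM, both TXNRD1 starts and the second KEAP1 start. Of all 35116 windows, 10.9% held it. The windows with a match are shown because they include 2 of the 4 rows with the highest ratios and the row with the lowest, and NQO1 is shown as the row with the highest ratio and no match in its window. Capitals mark the core on either strand, and sequences run 5′ to 3′ toward the start.
GCLM, chr1:93909431-93909680, minus strand: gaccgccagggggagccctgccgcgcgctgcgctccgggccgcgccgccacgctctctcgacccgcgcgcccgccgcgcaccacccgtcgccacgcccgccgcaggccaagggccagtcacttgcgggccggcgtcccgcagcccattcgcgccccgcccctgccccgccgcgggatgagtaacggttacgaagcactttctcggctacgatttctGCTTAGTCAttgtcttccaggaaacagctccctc
TXNRD1 first start, chr12:104215529-104215778, plus strand: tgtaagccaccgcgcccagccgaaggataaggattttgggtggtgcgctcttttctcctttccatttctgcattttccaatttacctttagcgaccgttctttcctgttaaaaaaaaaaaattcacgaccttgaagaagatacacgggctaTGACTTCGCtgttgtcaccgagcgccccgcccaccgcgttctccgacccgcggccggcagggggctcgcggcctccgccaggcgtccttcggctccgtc
TXNRD1 second start, chr12:104286782-104287031, plus strand: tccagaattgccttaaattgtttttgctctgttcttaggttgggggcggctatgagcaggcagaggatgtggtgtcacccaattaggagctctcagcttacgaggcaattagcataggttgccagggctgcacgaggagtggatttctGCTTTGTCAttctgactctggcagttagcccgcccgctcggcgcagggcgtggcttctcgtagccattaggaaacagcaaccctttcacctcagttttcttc
KEAP1 second start, chr19:10502772-10503021, minus strand: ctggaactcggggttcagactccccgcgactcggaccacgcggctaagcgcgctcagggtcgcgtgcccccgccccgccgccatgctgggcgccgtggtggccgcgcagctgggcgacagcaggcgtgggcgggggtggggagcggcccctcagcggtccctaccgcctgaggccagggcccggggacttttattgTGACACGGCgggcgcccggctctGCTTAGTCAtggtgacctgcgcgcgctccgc
NQO1, chr16:69726561-69726810, minus strand: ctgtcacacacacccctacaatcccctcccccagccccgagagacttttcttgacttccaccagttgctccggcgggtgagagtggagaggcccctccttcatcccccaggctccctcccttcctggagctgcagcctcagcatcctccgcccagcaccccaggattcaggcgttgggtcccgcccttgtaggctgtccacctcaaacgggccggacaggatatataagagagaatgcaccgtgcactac

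In GCLM the match lies at positions -34 to -26 from the start and reads TGACTAAGC on the opposite strand. The same letters occur in the KEAP1 window at -31 to -23, beside a second match, TGACACGGC, at -54 to -46. The TXNRD1 matches are TGACTTCGC at -99 to -91 and, on the opposite strand of the second window, TGACAAAGC at -102 to -94. A match thus occurred before genes whose rows were higher and before the gene whose row was lowest, and no match says only that the letters are not in this window.

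The wider pathway was described from 7 lists of other genes, none of which had a median as high as that of the 9 rows. The lists leave out the 9 rows, and members and lists were chosen with earlier results of these data known. This contrast of medians is therefore a description and no test. Among NRF2 partners and regulators, 0 of 14 measured rows were 2-fold apart and the median was 0.10. Bach1, which encodes a repressor that competes with NRF2 for the same elements, was highest at 0.80, from 232 and 81 counts. Sqstm1, whose product p62 draws KEAP1 into autophagy, followed at 0.47. Pgam5, a mitochondrial KEAP1 partner, and the small MAF row Maff were lowest at -0.78 and -0.71. Signs of list ratios, and whether an interval covers 0, hold for trimmed-mean scaling only. By total gene-row counts the list medians ran from 0.91 to 1.18, beside an all-row median of 0.95.

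The glutathione list had a median of 0.017 over 23 measured rows, with 3 rows higher by 2-fold or more and 0 lower by as much. Chac1, a glutathione-degrading enzyme gene induced by ATF4, stood highest at 2.49 (1.87 to 3.41) from 167 and 17 counts, followed by the glutaredoxin row Glrx2 at 1.54 (0.99 to 2.25) from 133 and 27 counts. The export pump row Abcc1 and the peroxidase row Gpx1 were lowest at -0.82 and -0.58. The highest row of this list was therefore 1 for glutathione breakdown, and the list's median lay beside that of all rows.

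The thioredoxin and peroxiredoxin list had the highest median of the 7, 0.25 over 18 measured rows. Of the 18, 13 lay above the all-row median, where 5307 of all 10614 rows did, and 2 were at least 2-fold higher. These were Sesn2, a stress-induced sestrin, at 2.19 (1.67 to 2.88) and Txnip, which encodes an inhibitor of thioredoxin, at 1.53 (1.27 to 1.82). Txnip had 44.4 CPM with salubrinal and 15.3 CPM in the control. The row for thioredoxin's inhibitor thus had a higher ratio than the rows of thioredoxin and its reductase. Txnrd2 and Sesn1 were lowest at -0.47 and -0.30, each within counting error of 0.

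NADPH-supply genes had a median of 0.033 over 12 measured rows, with 1 at least 2-fold higher. This was Me1, the cytosolic malic enzyme, at 1.00 (0.70 to 1.34), followed by the pentose phosphate row Taldo1 at 0.67. Tkt, another pentose phosphate enzyme, and the NAD kinase row Nadk were lowest at -0.86 and -0.85, so the highest and lowest rows of this list lay on both sides of the typical row. Heme and iron genes had a median of 0.14 over 14 measured rows with 0 of them 2-fold apart. Ncoa4, the ferritin autophagy receptor, was highest at 0.68 and Slc48a1, a heme transporter, next at 0.64. The heme synthesis rows Ppox and Alad were lowest at -0.61 and -0.59. Slc48a1 (-0.17 to 1.62) and Alad (-1.35 to 0.11) were each within counting error of 0.

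Detoxification enzymes had a median of -0.021 over 14 measured rows, with 0 of them 2-fold apart. Aldh3a2 and Nqo2 were highest at 0.72 and 0.52 and Cbr3 and Aldh1a1 lowest at -0.60 and -0.56. Of these, Cbr3 (-1.30 to 0.038) was within counting error of 0. Superoxide and peroxide enzymes had a median of 0.13 over 7 rows, again with 0 of them 2-fold apart. In that list the catalase row Cat was highest at 0.59 (0.37 to 0.81) and Selenos next at 0.34. Ccs, the copper chaperone of superoxide dismutase, and the mitochondrial dismutase row Sod2 were lowest at -0.48 and -0.27. Ccs (-1.06 to 0.066) was within counting error of 0.

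**Figure D4:**
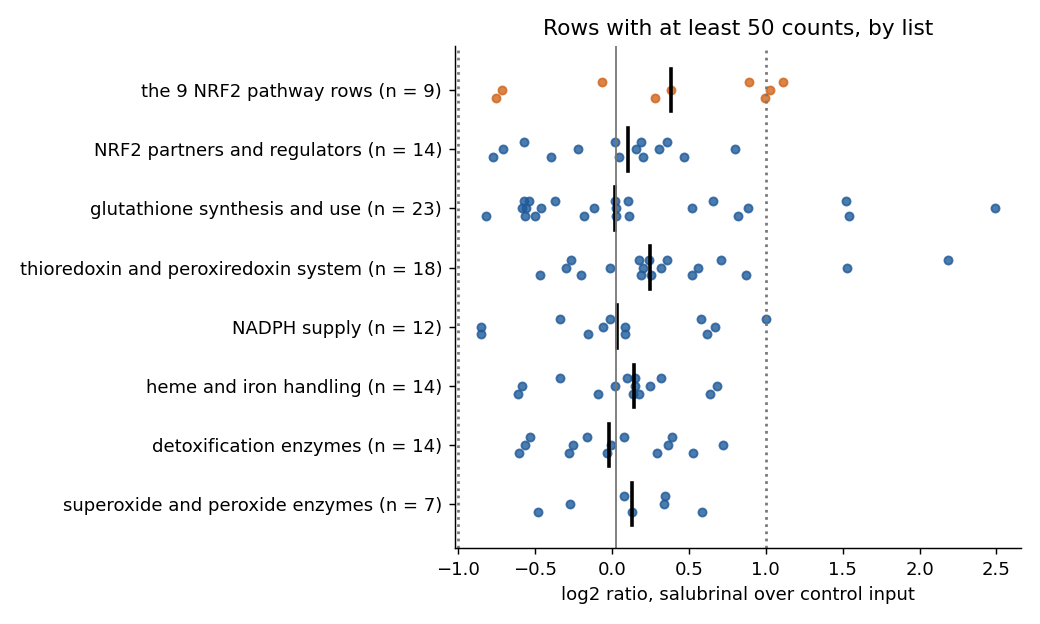
Log2 ratio of salubrinal over control input for each row with at least 50 counts (points, jittered vertically), for the 9 NRF2 pathway rows and 7 lists of other genes, with each list's median (black bar), the all-row median (grey line) and 2-fold (dotted lines). The median of the 9 rows is 0.39 and the list medians run from -0.021 to 0.25, while Chac1 and Sesn2 are the farthest points to the right.

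In the gradient fractions the pathway was almost without counts. The 24 fraction files print human symbols, and the 9 rows together held 17 counts of the 289242 outside ribosomal RNA (rRNA) rows, with 3 of them in the 6 polysome files. NFE2L2 held 7, in 6 files and at most 2 in a file, 5 in control and 2 in salubrinal samples, and none of the 7 was in a polysome file. TXNRD1 held 3, NQO1, SRXN1 and HMOX1 held 2 each, and OSGIN1 held 1. KEAP1, GCLC and GCLM were at 0 in every fraction file, which allows each a share of up to 0.00104% of the counts outside rRNA, by counting error only. TXNRD1, SRXN1 and NQO1 each had 1 count in a polysome file. The 9 rows made up 0.00588% of the counts outside rRNA in the fraction files, against 0.207% (salubrinal) and 0.0564% (control) of the gene-row counts of the inputs. These denominators and the gene symbols of the files differ, and the reason for the lower share was not tested. No direction can be read from so few counts.

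Once rRNA rows were set aside, the 4 files of a replicate differed by no more than sampling noise (chi-square per degree of freedom 0.937 to 1.03, lowest p = 0.11), whereas replicates within a fraction gave 1.54 to 8.16. For this, the 40S control files titled replicates 1 and 2 had to be exchanged; as titled, those 2 sets gave 1.23 and 1.47. The 4 files were therefore also summed into 1 library per replicate, 3 per treatment, and the fractions cannot be told apart for these genes. Summed, salubrinal replicates 1 and 2 held 0 counts on the 9 rows and replicate 3 held 7, and control replicates 1, 2 and 3 held 4, 2 and 4. The libraries without any were shallow, with 10098 and 3734 counts outside rRNA, against 73158 in salubrinal replicate 3 and 22499 to 93628 in the controls.

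In edgeR's quasi-likelihood test of salubrinal against control, none of the 9 rows had enough counts to be tested, so 0 were called at a Benjamini-Hochberg threshold of 0.05 and 0 had an unadjusted p under it. Of the rows that could be tested, 3.73% of 241 were called in the polysome files and 5.70% of 913 in the summed libraries. These fits kept the rRNA rows. Without rRNA rows, 27 of 164 and 91 of 736 were called, and again none of the 9 could be tested. Without the filter on low counts, 3 of the 9 rows entered the polysome fit and 6 the summed fit. Of these, 0 were called by edgeR, where 0 of 6044 and 4 of 10224 rows were, or by DESeq2, where 0 and 18 were. In edgeR, 0 and 2 of the pathway rows had an unadjusted p under 0.05, against 153 and 528 of all rows. In DESeq2 it was 0 in both fits, against 57 and 87 of all rows. With so few rows called at all, 0 called says nothing about the 9. The lowest values in the edgeR fit without that filter were those of NQO1 and SRXN1 in the summed libraries (unadjusted p = 0.0387, adjusted p = 0.634), each resting on 2 counts of salubrinal replicate 3.

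Where the reads of these genes may have gone was looked up by position in the RefSeq table. KEAP1, GCLM and HMOX1 overlap no other gene there. Overlapping rows in the files, EID3, NECAB2, MIR3128 and RPL18AP3, held 0, 0, 0 and 1. The overlapping noncoding genes GCLC-AS1, TXNRD1-AS1, NQO1-AS1 and, at SRXN1, LOC107985423 had no row there, so reads on them could not be looked up. The libraries were made with a stranded kit, and no source used here gives the strand setting of the counting. Among gene rows with an AS1 row, 128 pairs reached 24 counts, and in 99 of them the AS1 row was the larger, so a low count on a gene row need not mean little RNA. Whether this accounts for the low counts of the 9 rows was not tested.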

How the data were processed

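The authors deposited whole-number read counts per gene row for 26 libraries, not normalized. A stranded total RNA kit was used, per the labels' protocols. The submitters' processing notes name HTSeq 0.5.3p3 and STAR, beside DESeq, FastQC 0.11.5, SAMtools 0.1.19.24 and the build hg19. No source used here gives their roles or the strand setting. Groups were taken from titles, since the cell-line field numbers each sample differently. Rows that name no gene were left out; gene rows held 7.06% (salubrinal) and 5.94% (control) of input counts and 4.72 to 5.79% of fraction counts.

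Input log2 ratios used TMM scaling with a prior count of 2, and intervals are exact conditional binomial ones at 95% without the prior. Differences between 2 rows have exact conditional intervals of the odds ratio. Fraction counts were compared by the robust quasi-likelihood test of edgeR 4.0.16 (R 4.3.3, TMM, filterByExpr, Benjamini-Hochberg threshold 0.05, 3 libraries per group); DESeq2 1.42.0 was an alternative. The labels do not say whether replicates came from separate cultures, and p-values then measure only the spread between these samples, which may be technical. Chi-square used rows with at least 10 counts. The code was tested on simulated data.

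Of the 10 pathway rows, 9 are named and 1 is not reported here, and of each list the 2 highest and 2 lowest rows with at least 50 counts. Members and lists were chosen with earlier results of these data known; Osgin2, Prdx1, Hmox2, Txn1, Txnrd3 and all pairs of rows compared were chosen after their values were seen. Alternatives were RLE, upper-quartile and total-count scaling, TMM without the most abundant, rRNA and mitochondrial rows, other count minimums, a prior of 0.5, a 1.5-fold line and, for fractions, other filters, size factors, rRNA rows removed, a replicate block and leaving out each replicate.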

Additional observations from a re-analysis of the deposited data

How the results depend on the processing

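With RLE or upper-quartile scaling, TMM without the most abundant, rRNA and mitochondrial rows, a prior count of 0.5, a minimum of 200 counts or none, the median log2 ratio of the 9 rows stayed at 0.39. Under these settings 2 rows were at least 2-fold higher, or 3 by upper quartile, where Hmox1 crossed the line at 1.00. All 9 rows passed the minimum of 200 counts, so changing the minimum could not move these values. Scaling by total gene-row counts moved the median to 1.32 and the rows at least 2-fold higher to 6, where 45.5% of all rows were, and moved the median of all rows to 0.95. A 1.5-fold line gave 4 rows higher and 2 lower, where 1168 and 1288 of the 10614 rows with at least 50 counts were.

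In the fraction comparisons 0 of the 9 rows were called under each of the 12 alternatives for polysomes and 13 for summed libraries, the replicate block (0 in both) included; at most 3 and 6 of the rows entered a fit, so this says nothing about their stability. The count of all rows called went from 9 to between 0 and 39 in polysomes and from 52 to between 4 and 117 in the sums, lowest in the sums without a filter and highest without salubrinal replicate 2; with the 40S control files as titled, an alternative added after seeing the data, it was 89. With the replicate block 4 and 24 rows were called. Deviations of same-numbered samples correlated at 0.016, 0.35 and 0.42 in polysomes and -0.024, 0.17 and 0.32 in the sums. These values were near 0 for replicate 1 and positive for replicates 2 and 3, and differently numbered samples were not compared. They do not settle whether the numbers pair samples. The main fits used no pairing, and the replicate block is the alternative with it. The summed libraries held 3734 to 93628 counts outside rRNA, and how far depth accounts for the few counts on the 9 rows was not tested.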
